A study of Mus musculus with 6 samples.

Results

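The Z-disc is the protein plate that anchors the actin filaments of neighbouring sarcomeres and carries the force of contraction. A set of 10 genes for Z-disc and mechanical stress proteins (Ankrd2, Csrp3, Xirp1, Xirp2, Fhl1, Fhl2, Nrap, Des, Flnc and Myoz2) was examined in the left ventricle of the mouse heart. They were chosen by symbol, and each of the 10 matched 1 of the 55487 genes in the files. The study compared male C57BL/6 mice, 8 weeks old, in a model of alcoholic cardiomyopathy, with 3 RNA-seq libraries per group. ET mice were fed 5% ethanol in their diet over 10 days, followed by 1 ethanol gavage. CONT mice were fed an isocaloric diet over the same 10 days, followed by 1 gavage of maltose-dextrin. In both groups the ventricle was taken 9 h after the gavage. Whether every library stands for its own mouse is not stated in the labels. P-values therefore measure only the spread among the 6 samples, and that spread may be technical. In bulk tissue, fewer cells of a type and less RNA per cell cannot be told apart.

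At the Z-disc, alpha-actinin crosslinks actin and serves as a platform for scaffold, sensor and signalling proteins. Csrp3 (muscle LIM protein), the four-and-a-half LIM proteins Fhl1 and Fhl2, and the muscle ankyrin repeat protein Ankrd2 are proteins of this stretch-sensing machinery and can also act in the nucleus. Des (desmin) forms the intermediate filaments that tie Z-discs to each other and to the cell border, and Flnc (filamin C) crosslinks actin at Z-discs and costameres. Myoz2 (calsarcin-1) ties the phosphatase calcineurin to alpha-actinin, and Nrap and the Xin repeat proteins Xirp1 and Xirp2 bind actin at intercalated discs, where heart muscle cells join.

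The libraries held 31553420 to 33599269 expected counts in ET and 28838386 to 37762233 in CONT, and 15727 genes had enough counts to be tested. Cardiomyocyte RNA was seen in all 6 libraries. The 8 cardiomyocyte markers together made up 31879, 55084 and 49515 CPM (library-scaled counts per 1e+06) in ET replicates 1 to 3. They made up 52600, 59107 and 59524 CPM in CONT replicates 1 to 3. ET replicate 1 stood apart. Its summed cardiomyocyte markers were the lowest. Its summed atrial markers (3693 CPM, against 36.5 to 960 CPM in the other 5 libraries), fibroblast markers (1822 CPM, against 561 to 704 CPM) and smooth muscle markers (760 CPM, against 192 to 396 CPM) were the highest. The next highest atrial sum was 960 CPM in CONT replicate 3, against at most 115 CPM in the remaining libraries. Single markers differed from the sums. The cardiomyocyte markers Actc1 and Ryr2 were not lowest in ET replicate 1, and the smooth muscle markers Smtn and Myocd were not highest there. The atrial Bmp10 was at 0.053 CPM in ET replicate 1 and at 105.5 CPM in CONT replicate 3. Markers of fast skeletal muscle, which also expresses many of the members, summed to 13.9 CPM in ET replicate 1 and to 2.32 to 4.08 CPM in the others, with 6 of 9 detected in every library. The effective gene lengths, which the quantification weights by transcript, clustered the libraries across the groups. Set 2 held ET replicates 2 and 3 and CONT replicate 3, and set 1 held ET replicate 1 and CONT replicates 1 and 2. The clustering was cut so as to give 2 sets, and no label names them as a batch. What separated them is not given in the sources used here, and whether it lay in the tissue or in the handling was not tested.

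Windows before the annotated start are shown for the members whose values are described most closely: the LIM genes Fhl2, Fhl1 and Csrp3, and Xirp2 and Myoz2, whose windows hold a site for the muscle factor MEF2. They cover the 250 bases before the start, 5′ to 3′ on the gene's strand, from RefSeq on GRCm38.p6. Entries were there for 9 of the 10 members, with 13 windows in all. Where a member had more than 1 window, the first listed is shown. The Fhl1 window lies inside the span of the gene (chrX:56731787-56793346), so it precedes an internal start and not the first one. Capitals mark matches, on either strand, to a CArG box (the site of serum response factor, a regulator of muscle and stretch genes), to a MEF2 site or to the letters TATAAA.
Fhl2, chr1:43196762-43197011, minus strand: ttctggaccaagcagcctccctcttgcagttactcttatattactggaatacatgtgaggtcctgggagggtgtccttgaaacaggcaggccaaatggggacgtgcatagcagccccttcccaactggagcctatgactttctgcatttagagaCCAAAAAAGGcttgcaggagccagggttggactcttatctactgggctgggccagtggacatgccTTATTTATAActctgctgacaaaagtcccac
Fhl1, chrX:56779433-56779682, plus strand: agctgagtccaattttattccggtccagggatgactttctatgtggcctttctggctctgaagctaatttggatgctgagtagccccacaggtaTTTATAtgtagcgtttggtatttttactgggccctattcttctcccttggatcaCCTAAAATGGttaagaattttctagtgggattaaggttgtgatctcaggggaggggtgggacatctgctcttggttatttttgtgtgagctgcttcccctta
Xirp2, chr2:67445752-67446001, plus strand: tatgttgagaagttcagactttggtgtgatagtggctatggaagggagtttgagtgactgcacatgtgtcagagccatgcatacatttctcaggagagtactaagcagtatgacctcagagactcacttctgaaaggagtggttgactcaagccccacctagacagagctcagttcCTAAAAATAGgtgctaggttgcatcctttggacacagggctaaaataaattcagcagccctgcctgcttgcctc
Myoz2, chr3:123034988-123035237, minus strand: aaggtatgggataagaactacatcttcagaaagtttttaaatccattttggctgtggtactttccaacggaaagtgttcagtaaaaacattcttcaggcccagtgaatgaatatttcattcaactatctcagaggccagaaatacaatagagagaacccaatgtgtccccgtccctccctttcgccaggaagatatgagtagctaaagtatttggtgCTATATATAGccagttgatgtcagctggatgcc
Csrp3, chr7:48848052-48848301, minus strand: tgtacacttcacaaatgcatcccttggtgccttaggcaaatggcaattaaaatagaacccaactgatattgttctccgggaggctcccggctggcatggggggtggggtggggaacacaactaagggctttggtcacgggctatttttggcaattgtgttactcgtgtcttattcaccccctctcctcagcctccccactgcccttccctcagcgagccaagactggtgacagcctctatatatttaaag

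Taking the first listed window of each of the 9 members, that of Fhl1 before an internal start, a CArG box was found in 2 (Fhl2 and Fhl1). It was found in 1.47% of all 32851 windows in the table. A MEF2 site was found in 3 (Fhl2, Xirp2 and Myoz2) and in 2.92% of all windows. The letters TATAAA were found in 3 (Fhl2, Fhl1 and Ankrd2) and in 12.4%. In Fhl2 the TATAAA match lies inside the MEF2 match and shares its capitals. CATTCC, the core of the site for the stretch-linked TEAD factors, was found in 0 first windows and in 12.6% of all. The E-box CANNTG was found in 8 first windows and in 66.2% of all. A match is a description of the letters, and no match says only that they are not in this window. The Csrp3 window, which holds no capitals, had 4 E-boxes.

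In TPM, a level that is divided by transcript length, 4 members stood above the others in every library. Csrp3, Fhl2, Myoz2 and Des were the most abundant, with means over the 6 libraries of 767, 696, 654 and 562 TPM. In every library these 4 stood among the 220 most abundant genes, Fhl2 reaching rank 51 in one and standing at rank 220 in another. Their order was not fixed. Csrp3 exceeded Fhl2 in 4 of 6 libraries, Fhl2 exceeded Myoz2 in 3 of 6, and Myoz2 exceeded Des in 5 of 6. Nrap followed at 100.4 TPM, below Des in all 6 libraries. Fhl1 was at 40.0 TPM, and Nrap exceeded it in 5 of 6 libraries. Xirp1, Xirp2 and Flnc lay close together at 24.2, 23.2 and 20.9 TPM. Xirp1 exceeded Xirp2 in 3 of 6 libraries and Xirp2 exceeded Flnc in 5 of 6.

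Ankrd2 was nearly undetected. It had 11, 4 and 5 expected counts in ET replicates 1 to 3, against 8, 4 and 4 in CONT replicates 1 to 3, which is 0.35, 0.12 and 0.15 TPM in ET and 0.20, 0.12 and 0.12 TPM in CONT. The groups overlapped, and the gene did not pass the low-count filter, so it has no test. A difference between the groups was not detectable at this depth. Ankrd2 is best known from slow skeletal muscle, and its highest count was in ET replicate 1. Of the 9 fast skeletal muscle markers, 4 were highest in that library, led by Atp2a1 (6.52 CPM) and Tnni2 (4.08 CPM), while Mylpf (0.613 CPM) lay below all 3 CONT libraries and Myh4 was at 0. The part of skeletal muscle RNA in the Ankrd2 count was not tested. Its paralog Ankrd1, the cardiac ankyrin repeat protein, was at 253, 38.6 and 329 TPM in ET replicates 1 to 3 and at 343, 170 and 419 TPM in CONT replicates 1 to 3. ET replicate 2 stood far below the other libraries in Ankrd1.

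**Figure D1:**
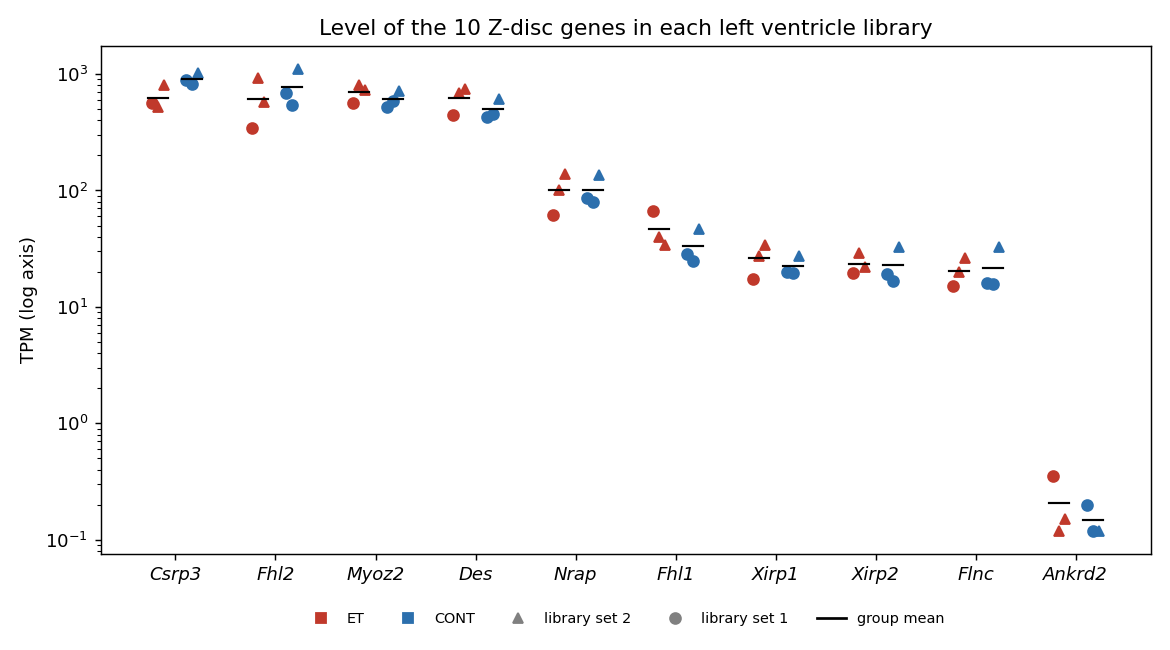
TPM of the 10 genes (log axis) in each library, ET left of CONT for each gene, triangles for library set 2, circles for set 1 and bars for the group mean. Csrp3, Fhl2, Myoz2 and Des lie above the other 6 genes, and Ankrd2 lies between 0.12 and 0.35 TPM.

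The comparison of ET with CONT asks whether ethanol feeding and a binge changed the mRNA of these proteins. With edgeR's quasi-likelihood test, 0 of the 9 tested members had an adjusted p under 0.05, and neither did any other of the 15727 genes (0.0% called). An unadjusted p under 0.05 was found for 1 of the 9, Csrp3, against 8.65% of all genes (4.19% higher and 4.46% lower in ET). DESeq2 also called 0 of the 9, against 1.17% of the genes it tested. Fitted log2 fold changes of ET over CONT were above 0 in 4 members and below 0 in 5 (51.9% of all genes were above 0), with a median of -0.0012, against a median of 0.014 over all tested genes. Only Csrp3 had CPM values that did not overlap between the groups, 1 of 9, against 15.2% of all genes in either direction (6.89% higher and 8.36% lower in ET).

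Csrp3 is an adaptor with paired LIM domains whose loss causes dilated cardiomyopathy in mice. It had 381, 389 and 674 CPM in ET replicates 1 to 3, against 778, 750 and 797 CPM in CONT replicates 1 to 3. All 3 ET libraries lay below all 3 CONT libraries, but ET replicate 3 came close to them, and the CONT values were tight. The means were 482 ± 167 CPM in ET and 775 ± 24.0 CPM in CONT (SD, n = 3 each), a log2 fold change of -0.69 ± 0.27 (SE). It did not pass the test in edgeR (unadjusted p = 0.0362, adjusted p = 0.56) or in DESeq2 (adjusted p = 0.279). Within the library sets ET stood over CONT by -0.58 (log2) in set 2 and by -1.0 in set 1, each resting on a single library of one group. The value was -1.01 without ET replicate 3 and between -0.70 and -0.53 without any other single library. Relative to the summed cardiomyocyte markers, Csrp3 was at 12.0, 7.07 and 13.6 CPM per 1000 marker CPM in ET and at 14.8, 12.7 and 13.4 in CONT, a log2 difference of -0.37, and the groups overlapped.

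Fhl2, which docks metabolic enzymes and signalling proteins on titin, had 370, 994 and 648 CPM in ET replicates 1 to 3, against 910, 779 and 1222 CPM in CONT replicates 1 to 3. The groups overlapped, with the lowest value in ET replicate 1 and the highest in CONT replicate 3. The log2 fold change was -0.53 ± 0.38 (adjusted p = 0.662 in edgeR). It was -0.23 without ET replicate 1, -0.32 without CONT replicate 3 and -0.93 without ET replicate 2, so these libraries decided its size, and without ET replicate 1 and CONT replicate 3 together it was -0.019. Relative to the cardiomyocyte markers it was -0.26. The ratio in set 2 was -0.57 and that in set 1 was -1.19 (log2).

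Fhl1, a LIM protein of the titin spring that takes part in hypertrophic signalling, had 113, 79.6 and 74.0 CPM in ET replicates 1 to 3, against 67.2, 61.5 and 96.5 CPM in CONT replicates 1 to 3. Here ET replicate 1 was the highest library and not the lowest. The log2 fold change was 0.25 ± 0.24 (adjusted p = 0.749 in edgeR), 0.05 without ET replicate 1 and 0.48 without CONT replicate 3. It was -0.33 in set 2 and 0.82 in set 1. Fhl1 is also expressed in fibroblasts and smooth muscle, whose summed markers were highest in the same library. Their part in the value was not tested.

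A ratio of paralogs within a library does not depend on how libraries are scaled. Fhl2 stood over Fhl1 by 5.22, 23.0 and 16.7 times (TPM) in ET replicates 1 to 3, against 24.1, 22.1 and 23.8 times in CONT replicates 1 to 3. The 3 CONT ratios were nearly equal, and ET replicate 1 had the smallest ratio by far. The difference of the mean log2 ratio was -0.89, with p = 0.20 in a two-sided exact permutation test and 0.45 adjusted over 3 paralog pairs, where 3 against 3 libraries cannot give less than 0.10. Leaving out 1 library at a time gave -1.32 to -0.25, the latter without ET replicate 1. With expected counts per annotated kilobase in place of TPM it was -0.87 (exact permutation p = 0.10, adjusted 0.30). Xirp2 over Xirp1 was 1.12, 1.07 and 0.648 in ET and 0.950, 0.843 and 1.2 in CONT, with overlapping groups (exact permutation p = 0.80, adjusted 0.80). Ankrd2 over Ankrd1 was at most 0.0031 in any library, and its test (exact permutation p = 0.30, adjusted 0.45) rests on single-digit Ankrd2 counts in 5 of 6 libraries and on the low Ankrd1 of ET replicate 2.

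**Figure D2:**
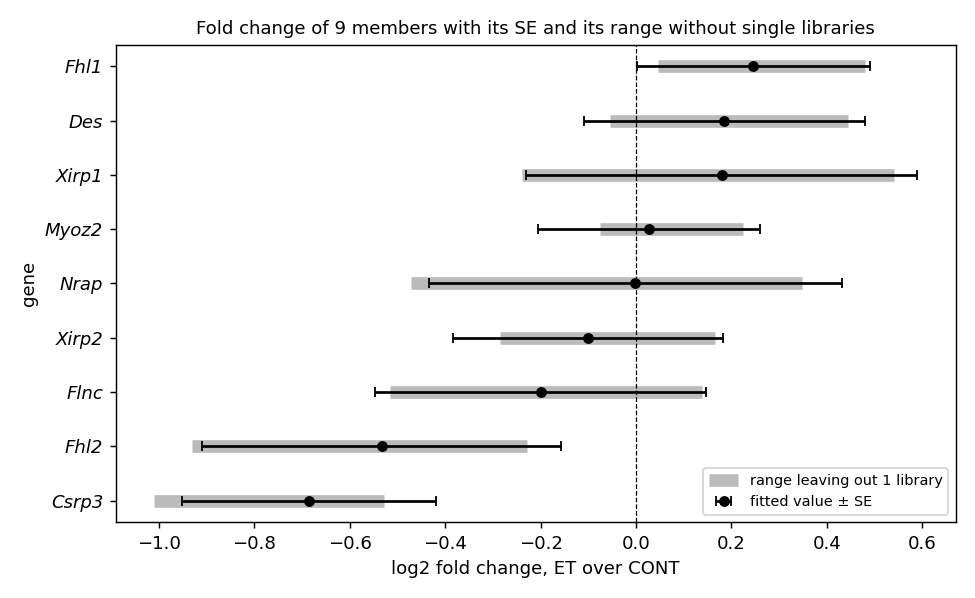
Fitted log2 fold change of ET over CONT for the 9 tested members, with bars of 1 SE and grey bands for the range when 1 library at a time is left out. The bands of Csrp3 and Fhl2 stay below 0 and that of Fhl1 stays above 0, and the other 6 cross 0.

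The groups overlapped in each of the filament and scaffold genes. Des had 1066, 1808 and 2212 CPM in ET replicates 1 to 3, against 1334, 1478 and 1662 CPM in CONT replicates 1 to 3. The ET values spanned those of CONT on both sides, and the log2 fold change was 0.19 ± 0.29 (adjusted p = 0.845 in edgeR). Myoz2 was the steadiest member, its highest library standing 1.56 times above its lowest. It had 505, 783 and 786 CPM in ET and 606, 715 and 714 CPM in CONT (0.03 ± 0.23, adjusted p = 0.976 in edgeR). Flnc had 110, 163 and 236 CPM in ET and 153, 158 and 273 CPM in CONT (-0.20 ± 0.35, adjusted p = 0.859 in edgeR). The highest Flnc library was ET replicate 3 among the ET libraries and CONT replicate 3 among the CONT libraries. Replicate numbers follow the order of deposit, so the shared number pairs nothing.

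Among the genes of the intercalated disc and of myofibril assembly, the highest library stood above the lowest by 3.28 times in Nrap, 3.29 times in Xirp1 and 1.96 times in Xirp2. Nrap had 212, 435 and 697 CPM in ET replicates 1 to 3, against 386, 359 and 600.5 CPM in CONT replicates 1 to 3, so that the lowest and the highest library both belonged to ET. Its means were equal within 1 CPM, 448 ± 243 CPM in ET and 449 ± 132 CPM in CONT (SD, n = 3 each), and its adjusted p in edgeR was 1.0. Xirp1 had 53.2, 121 and 175 CPM in ET and 87.0, 91.5 and 130 CPM in CONT (0.18 ± 0.41, adjusted p = 0.899 in edgeR). As in Nrap, ET held both extremes. Xirp2 had 190, 325 and 272 CPM in ET and 247, 225 and 373 CPM in CONT (-0.10 ± 0.28, adjusted p = 0.921 in edgeR).

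**Figure D3:**
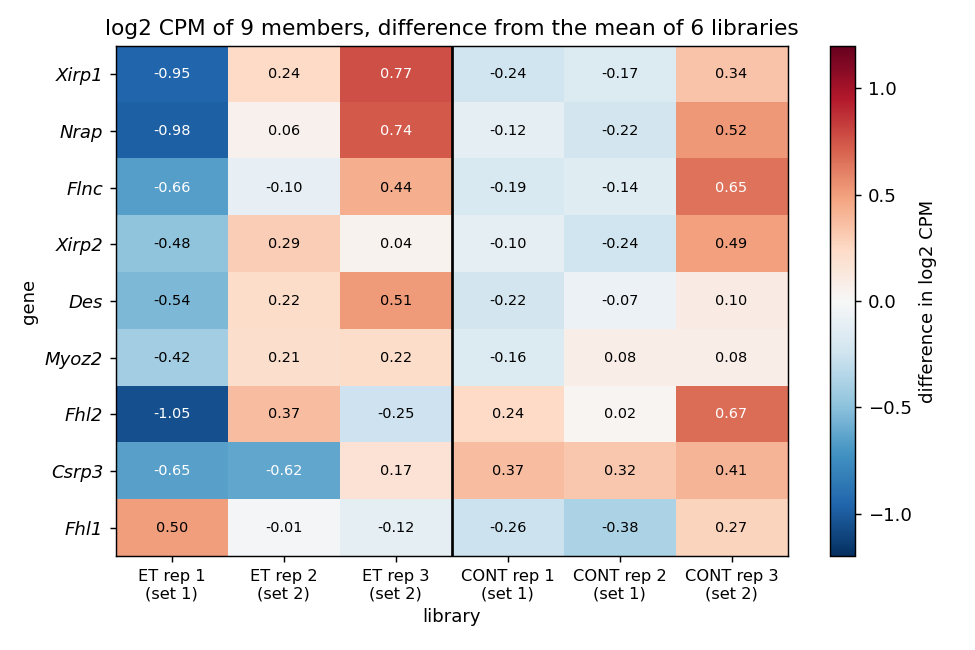
Difference of log2 CPM from the mean of the 6 libraries for 9 members, with the ET libraries left of the CONT libraries and red for higher values. ET replicate 1 is blue in 8 of 9 genes, with Fhl1 as the exception, and Csrp3 alone of the 9 separates ET from CONT.

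ET replicate 1 was the lowest library for 8 of the 9 members, all but Fhl1, against 24.3% of all tested genes. It was also the lowest in the summed cardiomyocyte markers. The median member stood at -0.65 in that library on the log2 scale, as a difference from the 6-library mean, and at 0.21 and 0.22 in ET replicates 2 and 3, against -0.16, -0.14 and 0.41 in CONT replicates 1 to 3. Set against the summed cardiomyocyte markers, ET replicate 1 was the lowest library for 1 member, Fhl2. That sum was itself the smallest in ET replicate 1 (31879 CPM, against 49515 to 59524 CPM), which raises every gene of that library on this scale. The share of all genes lowest there on this scale was not determined, so the count is only a description. On this scale, chosen after the data had been seen, Des was at 33.5, 32.8 and 44.7 CPM per 1000 marker CPM in ET replicates 1 to 3, against 25.4, 25.0 and 27.9 in CONT replicates 1 to 3. Myoz2 was at 15.9, 14.2 and 15.9 in ET, against 11.5, 12.1 and 12.0 in CONT. For both genes all ET libraries lay above all CONT libraries, 2 of 9 members, against 25.0% of all genes higher and 0.706% lower in ET on the same scale. The members' share is near that of all genes. The median over all genes was itself 0.36 (log2) higher in ET on this scale, and that of the members was 0.26. For Des and Myoz2 the exact permutation p was 0.10 each, the smallest that 3 against 3 allows, and 0.45 adjusted over the 9.

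**Figure D4:**
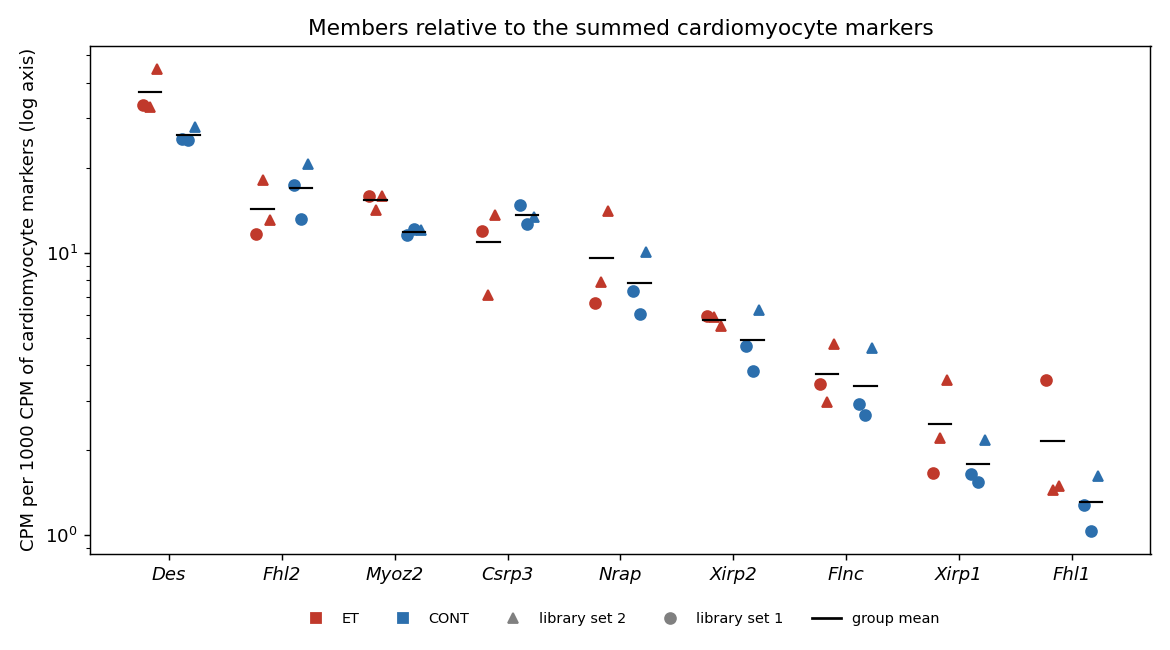
CPM of each member per 1000 CPM of the 8 summed cardiomyocyte markers (log axis), ET left of CONT, triangles for library set 2, circles for set 1 and bars for the group mean. Des and Myoz2 show all 3 ET libraries above the CONT libraries, and Csrp3 overlaps.

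The library sets went with several members more than the groups did. CPM of 5 of the 9 (Xirp1, Nrap, Flnc, Xirp2 and Des) did not overlap between the sets and was higher in set 2 each time, against 29.4% of all genes in either direction and 15.3% with set 2 higher. On the log2 scale set 2 stood over set 1 by 0.88 in Xirp1, 0.86 in Nrap, 0.68 in Flnc and 0.55 in both Des and Xirp2. CPM is not divided by length, and the effective lengths of Xirp1 and Nrap were also longer in set 2. In TPM, Xirp1 was at 27.4, 33.9 and 27.1 in set 2, against 17.31, 20.05 and 19.74 in set 1. Nrap was at 99.98, 138.7 and 135.9 TPM in set 2, against 62.1, 86.8 and 78.95 TPM in set 1. The part of length in the CPM differences was not tested. Csrp3 and Fhl1 differed between the sets by -0.04 and 0.05. Relative to the cardiomyocyte markers, Xirp1 and Nrap, 2 of the 9, did not overlap and were higher in set 2, against 2.01% of all genes. When the edgeR fit included the set, 0 of the 9 members passed. The median of the 9 was then -0.31, against -0.0020 over all genes, and Csrp3 had -0.79 (adjusted p = 0.439) and Fhl2 -0.88 (adjusted p = 0.427). The part of the sets in the values above was not tested beyond this.

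The effective length of a gene, computed from its deposited counts and FPKM, reports which of its transcripts the quantification favoured, and it was not used to choose the genes. In Xirp1 it was 4751, 4953 and 4994 bases in set 2 (ET replicates 2 and 3 and CONT replicate 3) and 3724, 3987 and 4082 bases in set 1 (ET replicate 1 and CONT replicates 1 and 2). In Nrap it was 4661, 4824 and 4604 bases in set 2 and 4144, 4084 and 4003 bases in set 1. The 3 libraries of set 2 lay above those of set 1 in both genes, by 0.32 and 0.20 on the log2 scale. Fhl2, Myoz2 and Des did not overlap between the sets either, but they were shorter in set 2. Their log2 differences were -0.14, -0.055 and -0.029. Since lengths over all genes defined the sets, this is a description, and 24.7% of 8090 well-covered genes did not overlap between them. Set 2 was longer by at least as much as in Xirp1 in 1.82% of these genes, and by at least as much as in Nrap in 4.81%. The annotation lists coding transcripts of 321 and 5839 bases for Xirp1 and of 4752 to 5501 bases for Nrap. The deposited quantification lists 3 transcripts for Xirp1, of which 2 share a name with this annotation. The length of the other is not known here. Xirp2, with 11902 to 11906 bases, and Csrp3, with 804 to 819 bases, kept their lengths.

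Between the groups, effective lengths did not overlap in 2 of 9 members, against 12.6% of well-covered genes. Fhl1 had 2079, 2136 and 2080 bases in ET replicates 1 to 3, against 2148, 2184 and 2165 bases in CONT replicates 1 to 3. It has 10 annotated transcripts, which include isoforms that differ in their LIM domains. Flnc had 8738, 8738 and 8639 bases in ET, against 8782, 8821 and 8765 bases in CONT. Both were shorter in every ET library, but by 0.05 and 0.01 on the log2 scale, with an exact permutation p of 0.10 each, the smallest possible, and 0.45 adjusted over the 9.

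**Figure D5:**
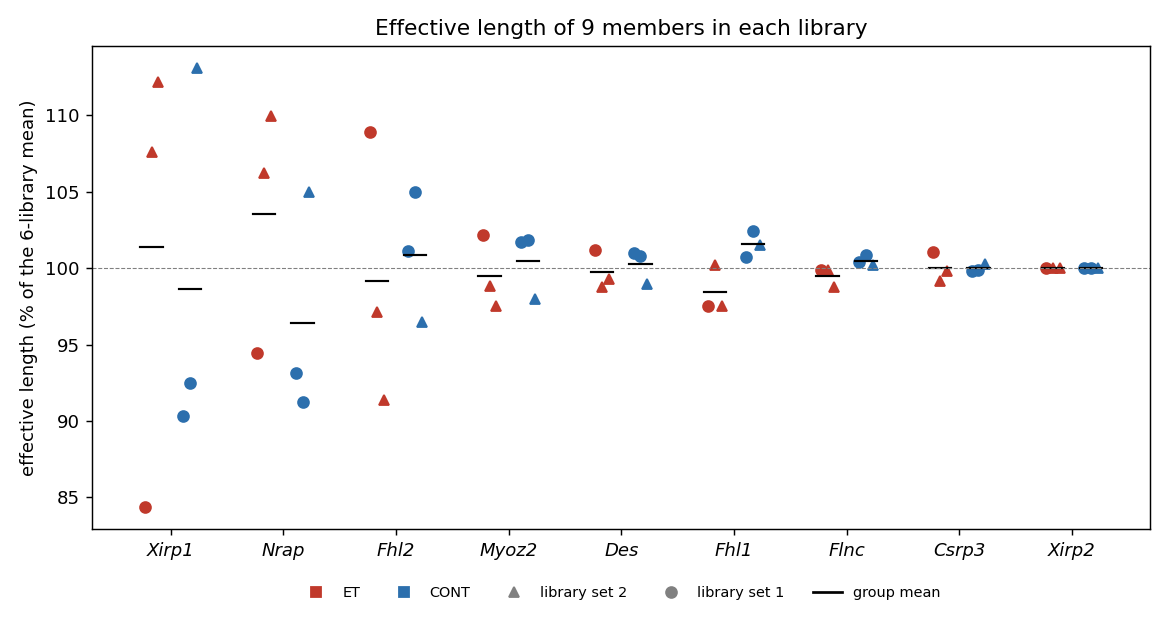
Effective length of 9 members as a percent of each gene's 6-library mean, ET left of CONT, triangles for library set 2, circles for set 1 and bars for the group mean. In Xirp1 and Nrap the triangles lie above the circles in both groups, and in Fhl2, Myoz2 and Des they lie below. Xirp2 and Csrp3 stay near the mean.

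Partner genes of the members gave no call over all genes either: of 99 distinct genes in 7 lists, 97 were tested and 0 passed. Of the 97, 56 were higher and 41 lower in ET, against 51.9% of all genes above 0. Their median log2 fold change was 0.07, against 0.014 over all genes. These values over all genes are the background for each list below. Unadjusted p in edgeR was under 0.05 in 7 of the 97, against 8.65% of all genes. Values did not overlap in 10 of the 97 (4 higher, 6 lower), against 15.2% of all genes. In the Z-disc core list, 8 of 18 tested genes were higher and 10 lower, with a median of -0.03. The actin-bundling paralogs Synpo2 and Synpo2l had the lowest p and opposite signs, at 0.52 ± 0.23 and -0.66 ± 0.29. Both groups' values overlapped in each, and neither passed (adjusted p 0.573 and 0.574 in edgeR).

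Of 13 ankyrin repeat, LIM and sensor genes, 5 were higher and 8 lower (median -0.01), led by Fhl3, a LIM paralog of Fhl1 and Fhl2, at 3.25, 3.91 and 3.84 CPM in ET replicates 1 to 3, against 6.73, 6.14 and 5.53 CPM in CONT replicates 1 to 3. All ET libraries lay below all CONT libraries (-0.74 ± 0.18), but the adjusted p was 0.478 in edgeR. Ankrd23, the diabetes-related muscle ankyrin repeat protein, had -0.70 ± 0.31 with overlapping groups. Of 19 costamere genes, 14 were higher and 5 lower (median 0.10), where 51.9% of all genes were higher. Itgb1, the integrin beta subunit, was at 282, 286 and 279 CPM in ET and 237, 233 and 234 CPM in CONT (0.26 ± 0.15, adjusted p = 0.610 in edgeR), without overlap, and Dmd, dystrophin, had 0.67 ± 0.31 with overlap.

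Of 13 partners at the intercalated disc, 8 were higher and 5 lower (median 0.04), and Gja1, the gap junction protein connexin 43, was at 92.6, 106 and 155 CPM in ET, against 177, 230 and 188 CPM in CONT (-0.75 ± 0.24, adjusted p = 0.515 in edgeR). Its groups did not overlap, while those of Kbtbd13, a ubiquitin ligase adaptor of muscle, did (-0.43 ± 0.29). Of 12 filamin clients and chaperones, 5 were higher and 7 lower (median -0.15). Sgcd, the delta-sarcoglycan bound by filamin C, had 0.77 ± 0.21 and Fblim1, a filamin-binding LIM protein, -0.38 ± 0.17, both without overlap and neither past the test (adjusted p 0.478 and 0.577 in edgeR). Of 11 desmin partners, 7 were higher and 4 lower (median 0.15), and the keratins Krt18 and Krt8 had the lowest p. Krt18 was at 11.5, 0.617 and 12.4 CPM in ET and 0.712, 0.187 and 0.769 CPM in CONT, so ET replicate 2 lay among the CONT values, and Krt8 was likewise high in ET replicates 1 and 3. Keratins are also made by mesothelial cells and hepatocytes. Summed mesothelial markers were highest in ET replicate 1 and summed hepatocyte markers in ET replicate 3. The 6 mesothelial markers summed to 177, 10.3 and 8.43 CPM in ET replicates 1 to 3, against 7.42, 10.6 and 29.7 CPM in CONT replicates 1 to 3. The 6 hepatocyte markers summed to 5.59, 1.10 and 80.7 CPM in ET, against 0.739, 3.44 and 0.444 CPM in CONT, and 4 of them had counts in every library. The part of such cells in the keratin values was not tested.

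Of 14 stretch and hypertrophy genes, 10 were higher and 4 lower (median 0.10), where 51.9% of all genes were higher. Myh7, the beta myosin heavy chain, was at 482, 899 and 3273 CPM in ET replicates 1 to 3, against 353, 297 and 422 CPM in CONT replicates 1 to 3 (2.12 ± 0.68, adjusted p = 0.515 in edgeR). Ccn2, connective tissue growth factor, was at 333, 83.4 and 148 CPM in ET, against 55.3, 36.6 and 70.2 CPM in CONT (1.80 ± 0.51, adjusted p = 0.5004 in edgeR). Both were higher in all 3 ET libraries without passing the test, and the highest library was ET replicate 3 for Myh7 and ET replicate 1 for Ccn2.

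Among the members, Nrap and Xirp1 had the most alike profiles, with a root mean square difference of 0.12 in centred log2 CPM over the 6 libraries. For Nrap, Xirp1 was the third nearest of 7477 genes with a mean of at least 10 CPM, after Sbk1 (0.078) and Usp13 (0.11), while the median gene lay at 0.54. For Xirp1, Usp13 (0.059) and Sh3rf2 (0.069) were nearest, and Nrap was at rank 24. Des was closest to Acad9 (0.015) and Ubr3 (0.016), and Csrp3 to Lsmem2 (0.086) and Fahd1 (0.12). The nearest member to Csrp3 was Flnc at 0.40, at rank 1286.

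On GRCm38 (mm10, GENCODE vM21), the members are protein-coding genes on 7 autosomes and the X chromosome, and each value covers all exons. Csrp3 lies at chr7:48830398-48848033 (minus strand), Fhl2 at chr1:43123074-43196984 (minus), Des at chr1:75360329-75368579 (plus) and Fhl1 at chrX:56731787-56793346 (plus). Nrap lies at chr19:56320035-56390037 (minus), with Ankrd2 on the same chromosome at chr19:42036000-42045110 (plus). Xirp1 lies at chr9:120013755-120023598 (minus), Xirp2 at chr2:67446002-67526614 (plus), Flnc at chr6:29433256-29461883 (plus) and Myoz2 at chr3:123006206-123035015 (minus). Genes on the opposite strand overlap 6.83% of the exon bases of Nrap, 5.86% of Des and 1.40% of Xirp2, and those shares are uncertain where counting did not use strand.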

How the data were processed

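Per the submitters' processing notes, STAR 2.7.0f and RSEM 1.2.31 were used with the mm10 build. Which annotation and strand setting served is not given in the sources used here. The authors deposited expected counts per gene, which are estimated and not normalized, with TPM and FPKM per library, per the file headers. Rounding made the estimates whole for the count tests. Effective lengths came from dividing estimated counts by FPKM and library total, for genes with at least 50 counts and an FPKM of at least 1 in a library. Library sets came from Ward clustering of these lengths over 8090 genes with at least 200 counts in each library, with the number of sets fixed at 2 beforehand. Genes were filtered with filterByExpr (minimum count 10, minimum total 15), scaled by TMM and tested with edgeR 4.0.16 (R 4.3.3), robust quasi-likelihood, two-sided, all 6 libraries, no covariate, with Benjamini-Hochberg adjustment over all genes and a threshold of 0.05. The SE is the fold change over the square root of F. limma 3.58.1, DESeq2 1.42.0, Python 3.11.15 and scipy 1.17.1 were used for the alternatives and exact tests. The fits were tested on simulated data first. Within a group, libraries differed beyond sampling noise (18.8 to 190 chi-square units per gene), so no pair was merged as one library deposited under 2 labels; this does not show whether they are separate mice.

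Members, gene lists and tests were chosen with earlier results of these data known. All 10 members are named, and of each partner list the 2 genes of lowest p where none passed. Genes of like profile are the 2 with the smallest root mean square difference, predicted loci left out. Counting error is small beside the spread between libraries for all members but Ankrd2.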

Additional observations from a re-analysis of the deposited data

How the results depend on the processing

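No paired analysis was possible because the labels give no replicate numbers and the order of deposit pairs nothing. Of the 9 members 0 passed in each of 16 other settings. Over all genes, DESeq2 called 184, limma-trend called 1 with log2(TPM + 1) and 2 with log2(TPM + 0.1), and edgeR called 828 after removing both ET replicate 1 and CONT replicate 3, where group and library set cannot be told apart. Csrp3 and Fhl2 stayed below 0 and Fhl1 above 0 in these settings, although Fhl2 was -0.019 without both libraries, and Fhl1 differed in sign between the library sets (-0.33 in set 2, 0.82 in set 1). With the cardiomyocyte marker scaling, added after the data were seen, Csrp3 had -0.37, Fhl2 -0.26 and Fhl1 0.61. Nrap, close to 0, turned positive with RLE factors (0.016), library totals (0.028), no filter (0.020), DESeq2 (0.016), mitochondrially encoded genes removed (0.0030), the cardiomyocyte marker scaling (0.24) and both libraries left out (0.62). Xirp2 turned positive on log2(TPM + 1) (0.084) and log2(TPM + 0.1) (0.088), where the median of all genes was 0.15 and 0.18, with the marker scaling (0.26) and without both libraries (0.36). Flnc turned positive in those last 2 settings (0.15 and 0.38), and the set term turned Xirp1 (-0.28), Des (-0.062) and Myoz2 (-0.12) negative. Without both libraries Xirp1 had 0.75 (adjusted p = 0.0674 in edgeR), the lowest adjusted p of any member and setting. The cause of these shifts was not tested. Library totals moved the median of all genes to 0.12. Leaving out 1 library at a time gave -0.47 to 0.35 for Nrap, -0.28 to 0.17 for Xirp2, -0.52 to 0.14 for Flnc, -0.24 to 0.54 for Xirp1, -0.055 to 0.45 for Des and -0.076 to 0.22 for Myoz2. It gave -0.24 to 0.17 for the member median, -0.25 to 0.15 for the log2 ratio of Xirp2 over Xirp1, and for the log2 effective length -0.0072 to 0.0063 in Csrp3, -0.098 to 0.029 in Fhl2, -0.034 to 0.00012 in Myoz2, -0.043 to 0.16 in Xirp1 and -4.0e-05 to 0.00021 in Xirp2. Of the members, depth limited Ankrd2.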
